A study of Homo sapiens with 27 samples.

Results

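The genes described here are 10 regulators of cell division: the transcription factors E2F1, E2F2, E2F3, E2F7, E2F8, MYBL2 and FOXM1, the E2F partner TFDP1, and the pocket proteins RB1 and RBL1. They were taken as the non-control probes of 27 two-colour Agilent arrays whose name is one of these symbols or an older alias, and all 10 were found among 17417 named genes of the platform that 8 of the 9 compounds share. HepG2 cells, a line of human hepatocellular carcinoma, were exposed for 48 h to benzo[a]pyrene (BaP), benzo[k]fluoranthene (BF), chrysene (CHR), indeno[1,2,3-c,d]pyrene (IND), benzo[a]anthracene (BA), phenanthrene (PH), 3-methylcholanthrene (3MC), dibenzo[a,h]anthracene (DBA) or naphthalene (NP), all of them polycyclic aromatic hydrocarbons. Each compound had 3 arrays, with RNA of exposed cells in Cy5 and RNA of HepG2 cells given the solvent DMSO in Cy3. Doses are not given in the labels, the dyes were never exchanged, and nothing says whether the 3 arrays of a compound come from separate cultures. The p-values therefore rest on no more than the spread between hybridisations, possibly a technical one, which is shared over the compounds of a platform.

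E2F factors bind DNA together with a TFDP partner and switch on the genes that a cell needs to enter S phase. In resting or arrested cells the pocket proteins RB1 and RBL1 bind E2F factors and hold these genes down, until cyclin-dependent kinases phosphorylate the pocket proteins. E2F7 and E2F8 bind the same sites without a TFDP partner and repress. Later in the cycle MYBL2, with the MuvB complex, and then FOXM1 switch on genes of G2 and mitosis. Several of these regulators are themselves E2F targets, so their messages belong to the programme they control. Polycyclic aromatic hydrocarbons are ligands of the aryl hydrocarbon receptor (AHR) to differing degrees, and metabolites of some of them form DNA adducts, which can activate p53 and its target CDKN1A, an inhibitor of cyclin-dependent kinases.

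The sequences just before the start of 5 of the genes are shown because they hold exact matches to E2F-type motifs, whose use by E2F factors was not tested. The sequences are RefSeq's for GRCh38.p14, in which 8 of the 10 genes have a window. Capitals mark TTTGGCGC, TTTCGCGC, TTTCCCGC and TTTCGCGG on either strand, and each run is written 5′ to 3′ on the gene's own strand. The runs of E2F1 (chr20:33686386-33686465, minus strand), E2F2 (chr1:23531234-23531313, minus strand), E2F3 (chr6:20401799-20401878, plus strand) and RBL1 (chr20:37095998-37096077, minus strand) end at the base before the start, and that of TFDP1 (chr13:113584603-113584682, plus strand) covers the bases from -150 to -71.
E2F1: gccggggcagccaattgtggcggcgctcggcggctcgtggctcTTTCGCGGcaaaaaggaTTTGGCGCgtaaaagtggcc
E2F2: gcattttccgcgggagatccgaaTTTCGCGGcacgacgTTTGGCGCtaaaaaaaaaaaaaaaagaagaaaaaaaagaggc
E2F3: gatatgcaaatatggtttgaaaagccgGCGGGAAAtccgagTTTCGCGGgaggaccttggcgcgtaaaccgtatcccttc
RBL1: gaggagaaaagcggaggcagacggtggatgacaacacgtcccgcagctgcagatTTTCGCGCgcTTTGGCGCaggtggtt
TFDP1: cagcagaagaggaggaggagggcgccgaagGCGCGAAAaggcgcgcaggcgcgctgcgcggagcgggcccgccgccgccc

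TTTGGCGC was found at -20 in E2F1, -42 in E2F2 and -16 in RBL1, positions being those of the motif's first base on the strand shown. TTTCGCGC was found at -26 in RBL1 and, on the opposite strand, at -120 in TFDP1. TTTCCCGC was found at -53 in E2F3, on the opposite strand. Of 35116 windows of 250 bases before a start, 0.55% held TTTGGCGC, 0.439% TTTCGCGC and 1.39% TTTCCCGC on either strand. TTTCGCGG, which was added after these sequences had been read, stands at -37 in E2F1, -57 in E2F2 and -39 in E2F3, and in 0.342% of all windows. Of the cell cycle homology motifs TTTGAA and TTCGAA, E2F3 held TTTGAA at -65 (13.3% of windows hold it), and none of the 8 genes held TTCGAA (1.19% of windows). No match overlapped another. The windows of E2F7 and MYBL2 held none of these letters, nor did a further E2F3 window, which ends at chr6:20403613. That of RB1, which lies at an internal start, was not used. A match is a description of the sequence and no evidence of binding.

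Values below are log2 ratios of compound over DMSO after background correction and loess normalisation, per array or as mean ± SD (n = 3 arrays). The words rose and fell are kept for changes of at least 1.5-fold whose adjusted p from limma, over all genes tested, was under 0.05. The 9 arrays of DBA, 3MC and NP were dim, with median signals of 36 to 124 intensity units in Cy5 and 33 to 254 in Cy3, against 299 to 1484 and 461 to 1253 on the 18 others. The background correction adds 50 units to each signal, so ratios of dim spots are drawn towards 0. Across genes, BA array 1 correlated at 0.176 and 0.126 with BA arrays 2 and 3, where every other pair within a compound reached 0.861 or more. CYP1A1, the AHR-induced cytochrome P450 that oxidises these compounds, was at 0.58 on that array and at 6.25 and 6.23 on BA arrays 2 and 3. Many BA results are therefore given with and without BA array 1, and BA means and counts given once include it. In RNA from whole cultures, fewer dividing cells and less of a message per dividing cell cannot be told apart.

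With BaP 6 of the 10 genes fell (E2F1, E2F2, E2F8, MYBL2, FOXM1, RBL1) and E2F7 rose, where 10% of all 17411 genes tested were lower and 15.1% higher. With BF 7 fell, the same 6 and TFDP1, and 0 rose, where 20.3% of all genes were lower and 16.1% higher. With CHR the 6 genes that fell with BaP fell, and E2F7 and RB1 rose, where 12.2% were lower and 11.8% higher. With IND, on its own platform, 6 fell (E2F1, E2F2, E2F7, E2F8, MYBL2, FOXM1) and 0 rose, where 13.3% of 14117 genes were lower and 10.6% higher.

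The remaining compounds moved fewer members past the threshold. With BA E2F7, E2F8, MYBL2 and FOXM1 fell and 0 rose, where 3.10% of all genes were lower and 2.03% higher. Without BA array 1, 7 fell, E2F1, E2F2 and TFDP1 being added, of which E2F2 read -0.04 and -0.01 on its dimmer probe on arrays 2 and 3. With PH E2F2, E2F7, E2F8 and FOXM1 fell and 0 rose, where 7.92% were lower and 10.6% higher. With NP RB1 fell and 0 rose, where 12.6% were lower and 6.74% higher. With 3MC (7.50% of all genes lower, 3.68% higher) and DBA (7.29% lower, 3.07% higher), 0 of the 10 members passed in limma at 1.5-fold in either direction. At an unadjusted p under 0.05, and also at the adjusted p alone, 6 were lower with each of these, and with plain background subtraction E2F8 and FOXM1 fell with 3MC, and E2F1 and E2F8 with DBA.

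The median of the 10 log2 ratios was -1.03 with BaP, -1.02 with BF, -0.70 with CHR and -0.78 with IND. It was -0.51 with BA, -0.30 with PH, -0.38 with 3MC, -0.25 with DBA and -0.13 with NP. The median over all genes tested lay between -0.01 and 0.04 in every compound. Counted by gene with BA array 1 included, FOXM1 and E2F8 fell with 6 of the 9 compounds, and E2F2 and MYBL2 with 5. E2F1 fell with 4 and RBL1 with 3, while E2F3 passed with none. Without that array E2F1, E2F2 and TFDP1 also fell with BA.

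**Figure D1:**
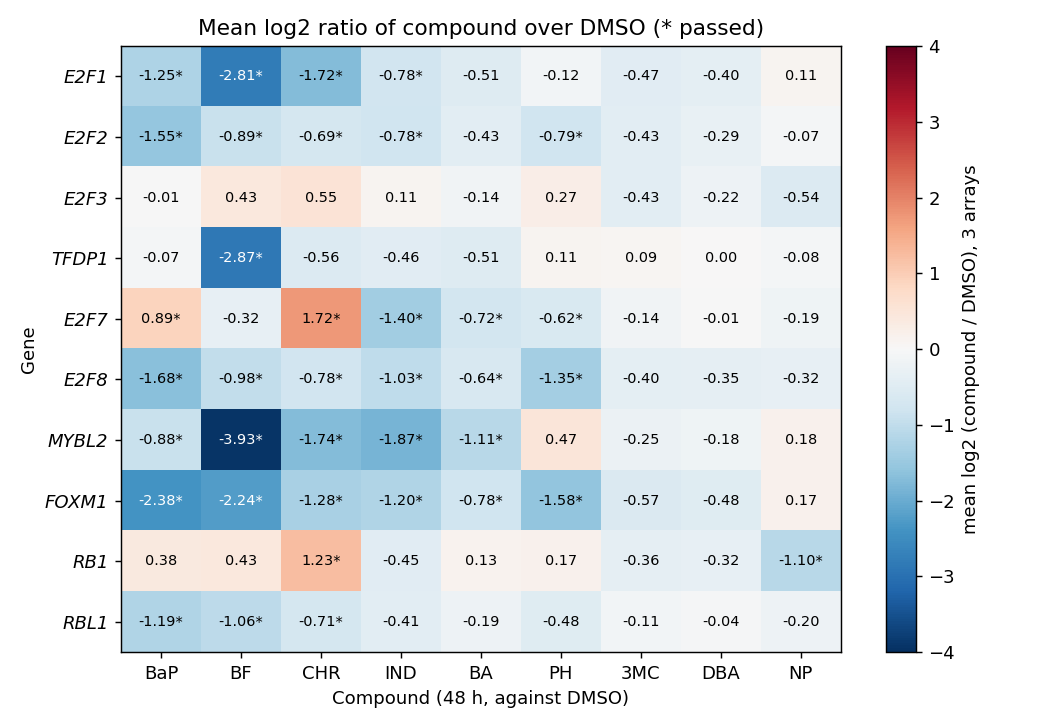
Heat map of the mean log2 ratio of compound over DMSO (3 arrays each) for the 10 genes (rows) and 9 compounds (columns), with the value in each cell and an asterisk where the gene passed. Blue cells, lower with the compound, fill the rows of FOXM1, E2F8 and E2F2 except for FOXM1 with NP at 0.17, the lowest cell is MYBL2 with BF at -3.93, and the cell of RBL1 with DBA rests on signals below background.

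E2F1, an activating E2F whose overexpression drives quiescent cells into S phase, was lowest with BF. Its arrays read -2.91, -2.75 and -2.75 with BF, from signals of 1252, 1539 and 1603 units with BF against 9529, 10453 and 10518 units with DMSO, which is 6.99-fold lower (limma adjusted p = 1.54e-17). On the CHR arrays E2F1 was at -1.54, -1.76 and -1.87 (mean -1.72 ± 0.17, adjusted p = 1.29e-13), and on the BaP arrays at -1.11, -1.33 and -1.30 (mean -1.25 ± 0.12, adjusted p = 1.70e-11). No array of BF overlapped an array of CHR or BaP.

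With IND E2F1 was at -0.77, -0.84 and -0.72 (mean -0.78 ± 0.06, adjusted p = 3.72e-06). The means with 3MC (-0.47 ± 0.08) and DBA (-0.40 ± 0.09) had adjusted p of 6.64e-05 and 3.82e-04 but stayed under 1.5-fold, at DMSO signals of 341 to 399 and 67 to 90 units. PH gave -0.12 ± 0.09 and NP 0.11 ± 0.01, with adjusted p of 0.201 and 0.257. E2F1 with BA was at -0.12 on array 1 and at -0.67 and -0.72 on arrays 2 and 3, so the mean was -0.51 ± 0.33 with array 1 and -0.70 without it.

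E2F2, a second activating E2F, was lowest with BaP, at -1.39, -1.67 and -1.57 (2.92-fold lower, adjusted p = 6.09e-12). BF (-0.89 ± 0.04), PH (-0.79 ± 0.11), IND (-0.78 ± 0.02) and CHR (-0.69 ± 0.05) formed a narrower range, in which BF, PH and CHR did not differ between neighbours (adjusted p of 0.586 and 0.56 over all genes and pairs). E2F2 with PH fell while E2F1 with PH did not pass, a difference between genes that was not tested. The array values of E2F2 with PH were -0.81, -0.68 and -0.90, against -0.02, -0.18 and -0.16 for E2F1 on the same arrays. The further E2F2 probe A_23_P125990 gave -0.44, -0.62 and -0.11 with PH and -0.38 ± 0.07 with IND, under 1.5-fold.

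E2F3, the remaining activating E2F, moved less than its relatives and passed with no compound. Its highest means were 0.55 ± 0.08 with CHR and 0.43 ± 0.10 with BF, and its lowest -0.54 ± 0.03 with NP and -0.43 ± 0.06 with 3MC. Each of these 4 had an adjusted p of at most 3.86e-06, and every array of CHR and BF lay above 0 and every array of NP and 3MC below. E2F3 was therefore higher than DMSO on the BF and CHR arrays on which E2F1 was at its lowest.

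TFDP1, the DNA-binding partner that E2F1, E2F2 and E2F3 need, fell with BF alone among the 9 compounds on the probe used. It read -2.96, -2.86 and -2.79 with BF, from 910, 860 and 941 units with BF against 7659, 7122 and 7122 units with DMSO, a 7.31-fold lower level (adjusted p = 5.72e-18). CHR gave -0.56 ± 0.09 (adjusted p = 2.33e-06), under 1.5-fold. BaP gave -0.07 ± 0.08 (adjusted p = 0.46). NP gave -0.08 ± 0.18 on the probe used and -1.16 ± 0.19 on the further probe A_24_P483083, which was the brighter of them on the NP arrays. With IND the arrays disagreed, at 0.51, -0.91 and -0.98, where the DMSO signal was 2919 units on array 1 and 6458 and 6350 units on the others. Without IND array 1 TFDP1 fell with IND (mean -0.95, adjusted p = 9.72e-07), and without BA array 1 it fell with BA (mean -0.70, adjusted p = 1.21e-08, against -0.51 ± 0.33 with it).

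**Figure D2:**
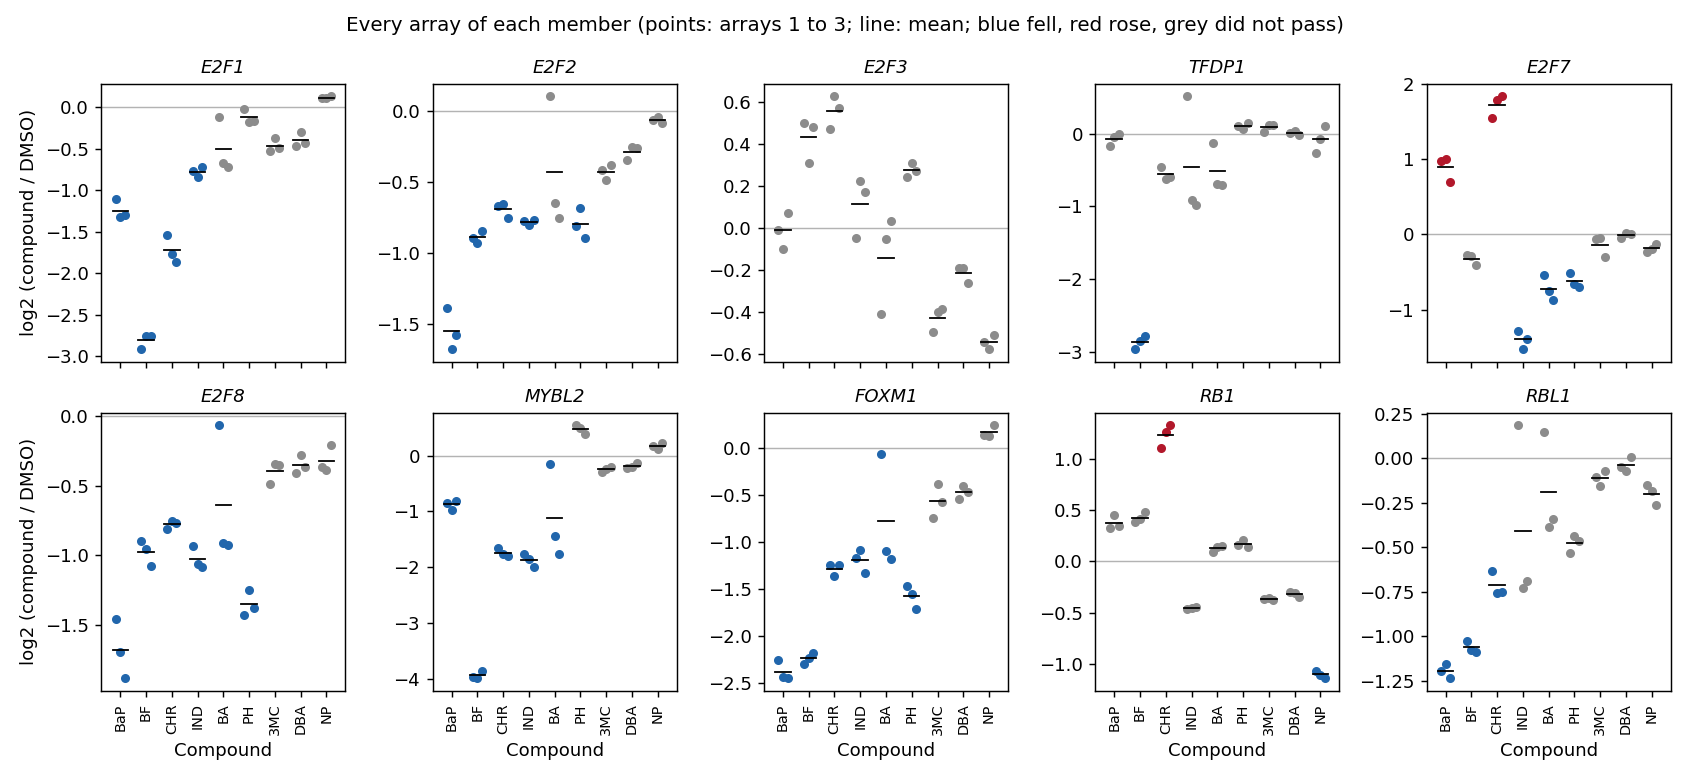
Log2 ratio of compound over DMSO on every array (points, arrays 1 to 3 from left to right) with the mean (line) for each of the 10 genes, each panel with its own vertical scale and a grey line at 0, coloured blue where the gene fell, red where it rose and grey where it did not pass. The 3 points of a compound lie close together except for BA, whose array 1 lies above arrays 2 and 3 for FOXM1 (-0.07 against -1.10 and -1.18), and for TFDP1 and RBL1 with IND.

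E2F7, a repressor of E2F targets and known to be induced by p53, moved both ways, as RB1 did. It rose with CHR, at 1.54, 1.78 and 1.83 (3.29-fold, adjusted p = 6.86e-15), from 2364, 1860 and 1737 units with CHR against 1080, 684 and 612 units with DMSO, of which the DMSO signal stood above background on 2 of 3 arrays. It rose with BaP, at 0.97, 0.99 and 0.70 (1.85-fold, adjusted p = 1.92e-10). All 6 arrays of these compounds lay above 0.

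E2F7 fell with IND, at -1.28, -1.52 and -1.38, where the IND signal did not stand above background on any array and the level was at least 2.63-fold lower than with DMSO (adjusted p = 7.80e-07). That bound sets the mean DMSO signal against, per array, the higher of the dimmest detected signal and the probe's own, after scaling the channels between arrays. E2F7 also fell with BA, at -0.54, -0.76 and -0.87 (-0.72 ± 0.17, adjusted p = 1.01e-07; -0.81 without array 1), and with PH, at -0.51, -0.67 and -0.70 (-0.62 ± 0.10, adjusted p = 7.41e-08). BF gave -0.32 ± 0.07, under 1.5-fold. The difference of BaP minus BF was 1.21 (95% interval 1.01 to 1.41, adjusted p = 8.06e-10).

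**Figure D3:**
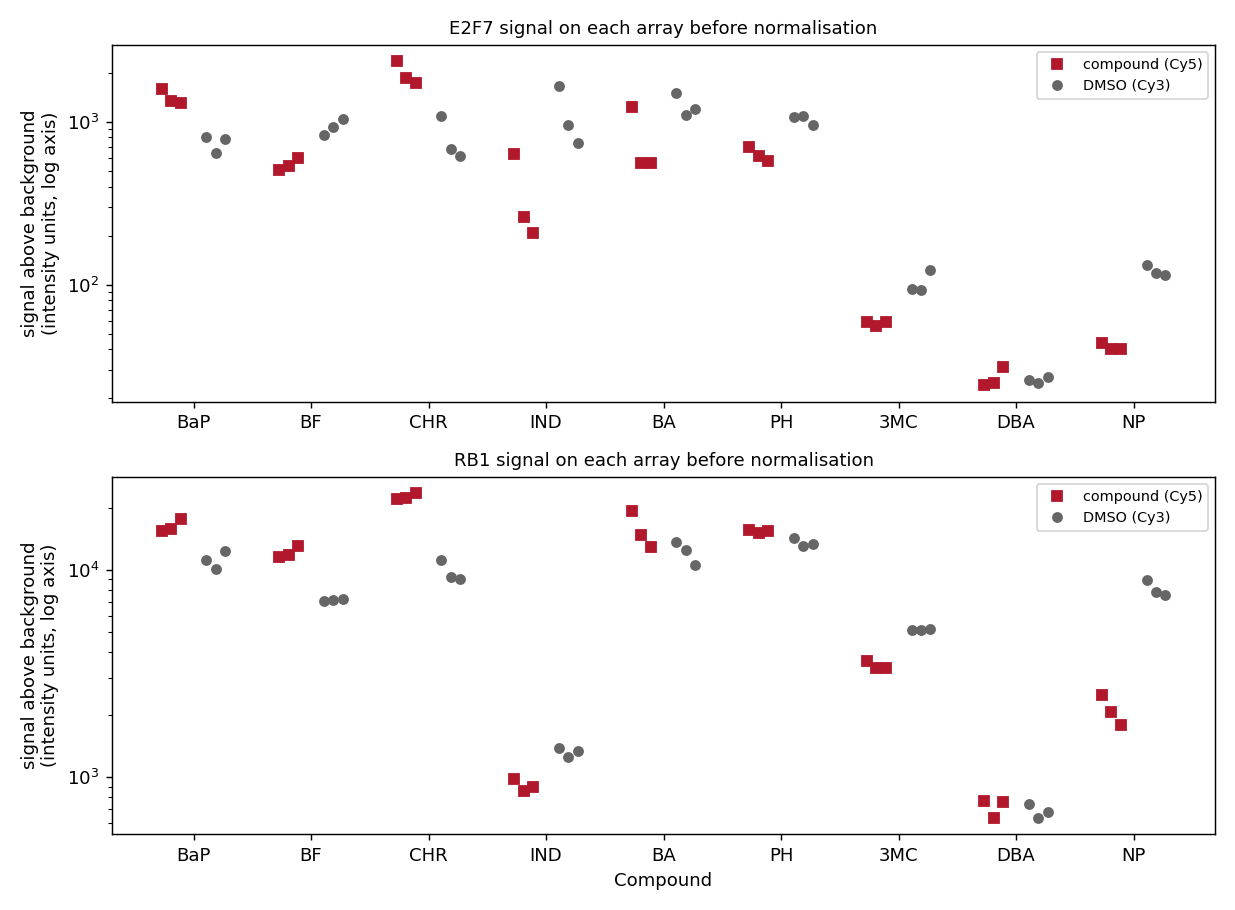
Signal above local background (intensity units, log axis, before normalisation) of E2F7 (top) and RB1 (bottom) on each of the 27 arrays, with the compound channel (red squares) left of the DMSO channel (grey circles) for each compound. E2F7 squares lie above the circles with BaP and CHR and below them on all arrays of IND, BA, PH and BF, and signals on the DBA, 3MC and NP arrays reach no more than 131 units.

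E2F8, the close relative of E2F7 and also a repressor, fell like it with IND, BA and PH and parted from it with other compounds. E2F8 fell with BaP, at -1.46, -1.69 and -1.88 (3.20-fold lower, adjusted p = 8.77e-12), and with CHR, at -0.81, -0.75 and -0.77 (adjusted p = 1.55e-06), the compounds with which E2F7 rose. It also fell with PH (-1.35 ± 0.09), IND (-1.03 ± 0.08), BF (-0.98 ± 0.09) and BA (-0.64 ± 0.49, or -0.92 without array 1). For E2F8 BaP and PH did not differ past the threshold (adjusted p = 0.0754), but did without BA array 1 in the fit (adjusted p = 1.87e-03). On the DBA arrays E2F8 was above background on 1 of 3 arrays in either channel, and its -0.35 ± 0.07 there rests on signals of 9 to 30 units.

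MYBL2, which with MuvB activates genes of late S phase and G2, had the widest span of means of the 10, from -3.93 with BF to 0.47 with PH. It read -3.97, -3.98 and -3.85 with BF, from 613, 504 and 630 units with BF against 10735, 9660 and 10257 units with DMSO (15.3-fold lower, adjusted p = 2.66e-15). It fell with IND (-1.77, -1.85 and -1.99), with CHR (-1.66, -1.76 and -1.80) and with BaP (-0.84, -0.97 and -0.82), with adjusted p of 2.08e-07, 3.83e-09 and 5.53e-05. With PH it stood at 0.54, 0.49 and 0.38, above 0 on every array but under 1.5-fold (adjusted p = 0.0141).

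MYBL2 with BA was at -0.14 on array 1 and at -1.43 and -1.76 on arrays 2 and 3 (mean -1.11 ± 0.85, or -1.60 without array 1). Means with 3MC, DBA and NP were -0.25, -0.18 and 0.18, with adjusted p from 0.229 to 0.476. The DMSO signal of MYBL2 was 53 to 359 units on the arrays of these 3 compounds.

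FOXM1, the activator of mitotic genes such as those of the cyclin B kinase and the kinetochore, fell with BaP at -2.25, -2.44 and -2.45, from 1277, 1155 and 1353 units with BaP against 6253, 6280 and 7385 units with DMSO (5.20-fold lower, adjusted p = 3.95e-13). BF followed at -2.30, -2.24 and -2.18 (4.72-fold lower), and BaP minus BF was -0.14 (95% interval -0.51 to 0.23, adjusted p = 0.541). FOXM1 with PH was at -1.47, -1.56 and -1.72 (2.99-fold lower, adjusted p = 5.51e-10), while MYBL2 with PH was above 0 on the same arrays.

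FOXM1 also fell with CHR (-1.28 ± 0.07), IND (-1.20 ± 0.13) and BA (-0.78 ± 0.62, or -1.14 without array 1). 3MC gave -0.75, -0.38 and -0.58 (mean -0.57 ± 0.18, adjusted p = 6.55e-04) and DBA -0.55, -0.41 and -0.47 (mean -0.48 ± 0.07, adjusted p = 3.84e-03), all below 0 and on average under 1.5-fold. NP left FOXM1 at 0.14, 0.13 and 0.24 (limma adjusted p = 0.275, at the shared SE of 0.13 beside an SD of 0.06).

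RB1, the retinoblastoma protein, rose with CHR and fell with NP. Its arrays read 1.10, 1.26 and 1.33 with CHR, from 21936, 22294 and 23429 units with CHR against 11166, 9197 and 9084 units with DMSO (2.34-fold higher, adjusted p = 4.10e-16). With NP they read -1.06, -1.10 and -1.13, from 2484, 2071 and 1783 units with NP against 8974, 7865 and 7558 units with DMSO (2.14-fold lower, adjusted p = 2.44e-15). BF (0.43 ± 0.05) and BaP (0.38 ± 0.07) were above 0 on every array, and IND (-0.45 ± 0.01), 3MC (-0.36 ± 0.01) and DBA (-0.32 ± 0.03) below, all under 1.5-fold.

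RBL1, or p107, a pocket protein whose own gene is an E2F target, fell with BaP at -1.20, -1.15 and -1.23 (2.29-fold lower, adjusted p = 6.14e-13) and with BF at -1.02, -1.07 and -1.08 (2.09-fold lower, adjusted p = 2.65e-12). CHR gave -0.63, -0.75 and -0.75 (adjusted p = 3.60e-09). PH gave -0.48 ± 0.05, under 1.5-fold. The arrays of BaP, BF and CHR do not overlap those of any other compound on the shared platform. With IND RBL1 was at 0.19, -0.73 and -0.69, where array 1 was not above background, and it fell without that array (mean -0.71, adjusted p = 4.12e-06). These IND values are from probe A_23_P28733 and those of the other compounds from A_24_P276102, which gave -1.13, -0.84 and -0.78 with IND, above background on 1 array. On the DBA arrays A_24_P276102 was not above background in either channel, so its value there, which enters the count of 10 and the DBA median, is no measured ratio. In Cy5 it was above background on 1 of 3 arrays with 3MC and with NP. A_23_P28733 was above background in Cy5 on 3 of 3 arrays of each of these compounds, at -0.08 ± 0.02 with DBA, -0.19 ± 0.07 with 3MC and 0.01 ± 0.12 with NP.

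For 4 genes the arrays carry a further probe, and for RB1 the probes disagreed. The brighter probe A_23_P204850, used above, gave 0.43 ± 0.05 with BF, and A_24_P102636 gave -2.36, -2.47 and -2.61 on the same arrays, from mean signals of 176 units with BF against 1678 units with DMSO. With CHR these probes gave 1.23 and 0.37, and with NP -1.10 and -0.34. The mean of both probes of RB1 with BF was -1.03 (adjusted p = 2.76e-16), a direction opposite to that of the brighter probe. Which transcripts each probe reads was not tested.

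TFDP1's probes gave close values with BF (-2.87 ± 0.09 on A_32_P199301 and -3.14 ± 0.08 on A_24_P483083) and with CHR (-0.56 and -0.58). With NP they parted, at -0.08 ± 0.18 and -1.16 ± 0.19, the brighter probe over all arrays having DMSO signals of 79 to 137 units there. A_24_P483083 had a mean DMSO signal of 433 units with NP and stood above background on 3 of 3 arrays in both channels. With IND A_24_P483083 gave -0.92, -0.91 and -0.87, with no odd array. RBL1's probe A_23_P28733 gave -0.46 with BaP and -0.47 with BF, nearer 0 than the brighter A_24_P276102, and its mean signals there were 62.3 and 107 units with the compounds. E2F2's A_23_P125990 was lower with BF (-1.28 ± 0.17) than with BaP (-0.88 ± 0.04), an order opposite to that of A_23_P408955.

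**Figure D4:**
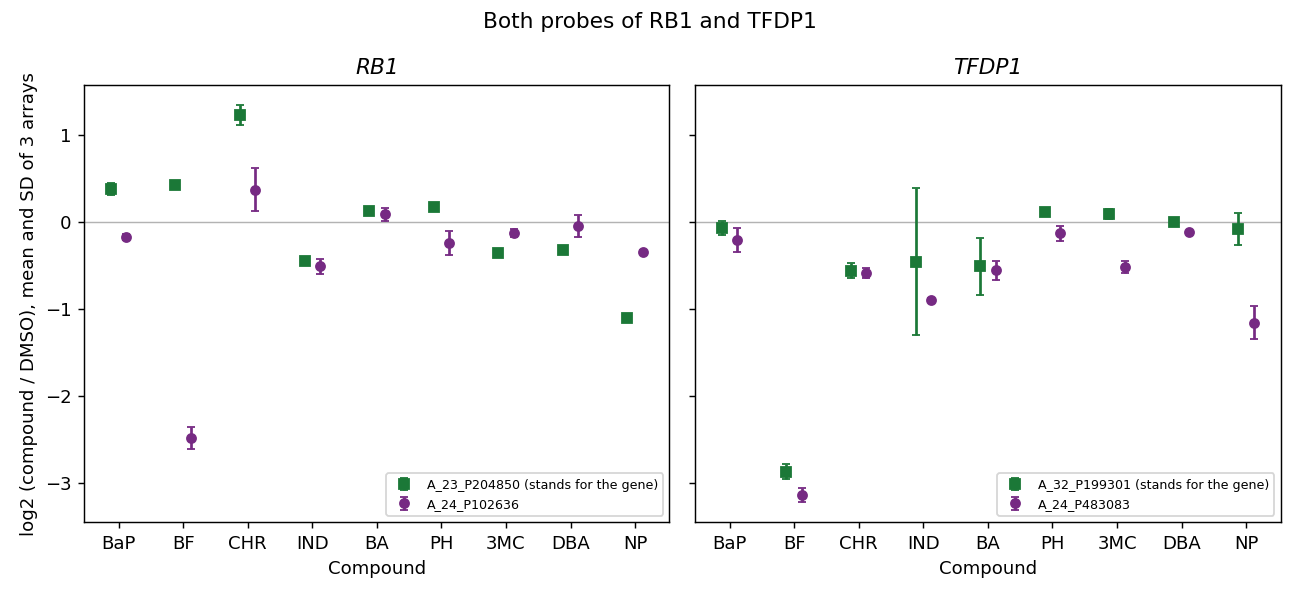
Mean log2 ratio of compound over DMSO (points) with the SD of 3 arrays (bars) for both probes of RB1 and TFDP1 and all 9 compounds, the probe that stands for the gene in green squares and the further probe in purple circles. With BF the RB1 probes stand at 0.43 and -2.48, whereas the TFDP1 probes stand at -2.87 and -3.14.

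Compounds on the shared platform were then compared with each other for every gene, in 28 pairs adjusted together over all genes and pairs. Doses may differ between compounds and are not given, so these are differences between exposures as applied. Of the 280 tests on the 10 genes, 214 (76.4%) had an adjusted p under 0.05, against 55.9% of the tests over all genes. RB1 differed in 25 of 28 pairs, E2F1, E2F3, MYBL2 and FOXM1 in 23, E2F7 in 22, RBL1 in 21, E2F2 in 19, E2F8 in 18 and TFDP1 in 17. Among DBA, 3MC and NP, whose arrays were dim, 9 of 30 tests passed, and among the other 5 compounds 80 of 100. Between these sets 125 of 150 passed, where array brightness and compound cannot be told apart.

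Ordered from low to high on the shared platform, FOXM1 ran BaP, BF, PH, CHR, BA, 3MC, DBA, NP. Of these neighbours BaP and BF, PH and CHR, BA and 3MC, and 3MC and DBA did not differ past the threshold. E2F1 ran BF, CHR, BaP, BA, 3MC, DBA, PH, NP, with no neighbours past the threshold from BA upwards. MYBL2 ran BF, CHR, BA, BaP, 3MC, DBA, NP, PH, where BA and BaP (adjusted p = 0.402) and the neighbours from 3MC upwards did not differ past it. PH had the highest mean for MYBL2. With BA array 1 left out of the fit, 143 of 150 tests passed between the sets, 13 of 30 among DBA, 3MC and NP, and 84 of 100 among the other 5 compounds. In that fit BA and 3MC differed for FOXM1 (adjusted p = 1.46e-05) and E2F1 (adjusted p = 0.0267), BA was lower than BaP for MYBL2 by 0.72 (adjusted p = 1.11e-07), and further neighbours differed: for E2F1 DBA and PH (adjusted p = 4.37e-03) and PH and NP (0.0125), for FOXM1 PH and CHR (3.51e-03), and for MYBL2 DBA and NP (1.91e-04) and NP and PH (1.16e-03).

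BaP and BF are isomers, which differ in how their rings are fused. BF was lower than BaP for MYBL2 (BaP minus BF 3.06, 95% interval 2.59 to 3.53, adjusted p = 2.3e-10), TFDP1 (2.80, interval 2.56 to 3.03) and E2F1 (1.56, interval 1.32 to 1.81). BaP was lower than BF for E2F8 (-0.70, interval -1.02 to -0.38, adjusted p = 4.73e-04) and E2F2 (-0.65, interval -0.94 to -0.37, adjusted p = 3.34e-04). For RBL1 (-0.13, interval -0.32 to 0.06) and RB1 (-0.05, interval -0.17 to 0.07), as for FOXM1, the pair did not pass. Without BA array 1 in the fit RBL1 passed (adjusted p = 0.023), and the dimmer RB1 probe was at -2.48 with BF and -0.18 with BaP. The dimmer E2F2 probe had the opposite order, at -0.88 with BaP and -1.28 with BF. In all 7 of 10 genes differed on the probes used.

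CHR and BA are isomers too. For E2F7 CHR minus BA was 2.44 (95% interval 2.24 to 2.64, adjusted p = 1.46e-14), for RB1 1.10 (interval 0.98 to 1.22) and for E2F1 -1.22 (interval -1.46 to -0.97). These kept their sign and passed without BA array 1, at 2.53, 1.08 and -1.03. For FOXM1 and MYBL2 the differences of -0.50 and -0.63 passed with array 1 (adjusted p of 0.0212 and 0.0225) and not without it (-0.14 and -0.15, adjusted p of 0.177 and 0.121). DBA and 3MC differed in 1 of the 10 genes, E2F3 (DBA minus 3MC 0.21, interval 0.03 to 0.39, adjusted p = 0.0409). For FOXM1 their difference was 0.09 (interval -0.28 to 0.47), and for E2F1 0.06 (interval -0.18 to 0.31), both at dim signals.

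The genes that E2F binds at G1/S and those that MYBL2-MuvB and FOXM1 activate in G2 and mitosis were counted as lists, beside which no set test was run. For every list count from here on, the share of all genes tested is the one given above for the same compound. Of 28 G2 and mitosis genes, which include the mitotic kinase genes CDK1, AURKB and PLK1, 28 fell with BaP (median log2 ratio -2.87) and 28 with BF (-1.77). There were 27 with PH (-1.69), 27 with IND (-1.50), 25 with CHR (-1.05), 23 with 3MC (-1.13), 23 with DBA (-1.03), 18 with BA (-0.66, and 24 without BA array 1) and 11 with NP (-0.42). With each of 3MC and DBA 23 of these genes fell and no member of the 10 passed at 1.5-fold. On these dim arrays the members' ratios are drawn towards 0, MYBL2 having 53 to 67 DMSO units with DBA. At an unadjusted limma p under 0.05, 6 members were lower with each. CDK1, the kinase of cyclin B, was at -3.68 ± 0.03 with BaP, -2.08 ± 0.10 with DBA, -2.02 ± 0.09 with 3MC and -1.33 ± 0.04 with NP. TOP2A, the topoisomerase that untangles chromosomes, was at -3.73 ± 0.08 with BaP and -2.29 ± 0.05 with PH, and AURKB at -3.59 ± 0.02 with BF and -2.42 ± 0.06 with CHR.

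Of 32 G1/S genes, 29 fell with BF (median -1.28), 26 with BaP (-1.25), 20 with PH (-0.71), 18 with BA (-0.65, and 24 without BA array 1), 16 with CHR (-0.61), 16 with 3MC (-0.57), 14 with DBA (-0.45) and 6 with NP (-0.07). With IND 28 of 31 tested fell (-1.19). UHRF1, which maintains DNA methylation in S phase, was at -3.48 ± 0.09 with BaP, -2.62 ± 0.08 with CHR, -2.38 ± 0.06 with BF and -2.34 ± 0.07 with IND. It was at -2.14 ± 0.06 with 3MC, -1.96 ± 0.07 with DBA, -1.45 ± 0.04 with PH and -1.40 ± 0.05 with NP. On BA arrays 1 to 3 it read 0.05, -1.71 and -1.73. MCM2, a subunit of the replicative helicase, was at -2.46 ± 0.06 with BF and -1.84 ± 0.01 with IND. PCNA, the sliding clamp of DNA polymerase and also a p53 target, rose with CHR by 2.38 ± 0.10.

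**Figure D5:**
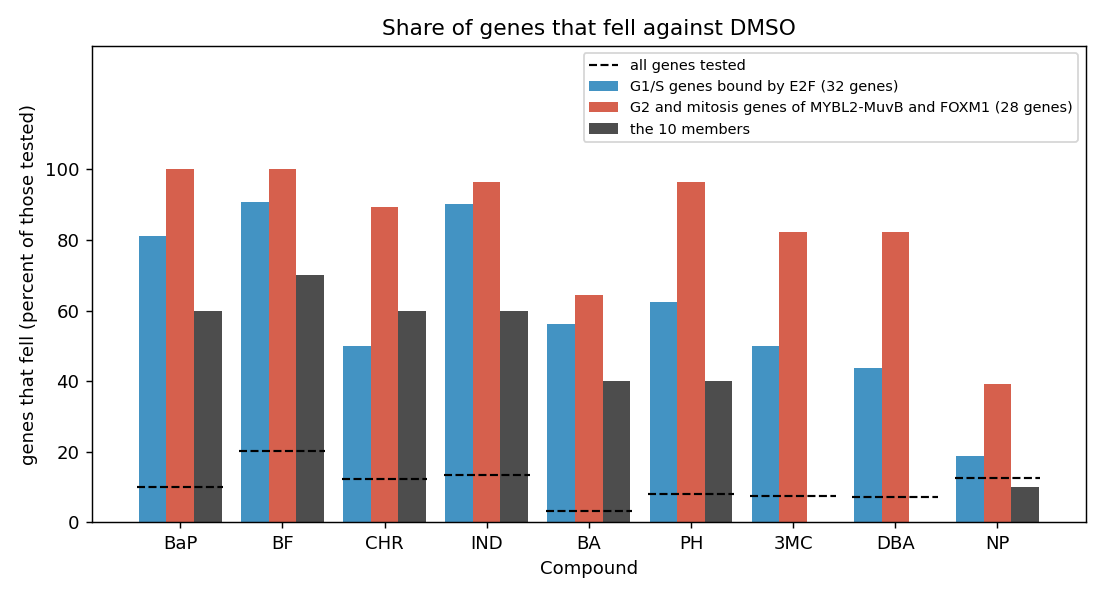
Percent of tested genes that fell against DMSO for each compound: the 32 G1/S genes bound by E2F (blue), the 28 G2 and mitosis genes of MYBL2-MuvB and FOXM1 (red) and the 10 regulators (grey), with the share of all genes tested as a dashed line. The red bar is the tallest for every compound. The grey bar is at 0 with 3MC and DBA, where 23 of the 28 G2 and mitosis genes fell and where ratios of dim regulators are drawn towards 0.

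Among E2F relatives outside the 10, E2F5, a pocket-bound repressor, fell with BaP (-1.49 ± 0.12), DBA (-1.11 ± 0.18), 3MC (-0.96, -1.02 and -1.02 on its arrays), CHR (-0.70 ± 0.21) and NP (-0.64 ± 0.09). E2F4, likewise pocket-bound, fell with NP (-1.01 ± 0.05), 3MC (-0.86 ± 0.05) and DBA (-0.72 ± 0.02), the compounds of the dim arrays. TFDP2, the alternative partner, fell with BaP (-1.49 ± 0.09), BF (-0.81 ± 0.03) and CHR (-0.73 ± 0.06). E2F6 rose with NP (0.74 ± 0.01) and BF (0.70 ± 0.02). RBL2, the pocket protein of resting cells, fell with IND (-0.82 ± 0.16).

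Of 6 genes of the MuvB core and its kinase, LIN9, the subunit that MYBL2 needs, fell with BaP (-1.88 ± 0.04), IND (-1.38 ± 0.12), BF (-1.32 ± 0.08), CHR (-1.07 ± 0.12) and PH (-0.65 ± 0.08). DYRK1A, which assembles the repressive form of MuvB, fell with DBA (-0.87 ± 0.07), NP (-0.74 ± 0.02) and 3MC (-0.61 ± 0.07). These are the compounds of the dim arrays, where brightness and compound cannot be told apart. LIN37, of the same list, rose with BF (0.80 ± 0.04), PH (0.74 ± 0.09) and IND (0.72 ± 0.06). Of these 6 genes, 2 fell with BaP, BF, CHR and IND and 1 with DBA, 3MC, PH and NP. With BA 0 fell (1 without array 1), and 1 rose with BF, IND and PH. Of 9 cyclins and kinases that phosphorylate pocket proteins, 6 fell with BF, 5 with BA, 4 of 8 tested with IND, 3 with BaP and with CHR, 2 with PH, DBA and 3MC, and 1 with NP. CCNA2, which encodes cyclin A, was at -3.33 ± 0.18 with BaP, -2.35 ± 0.02 with BF and -1.70 ± 0.03 with PH. In the same list 2 rose with BaP and 1 each with CHR, IND, DBA, 3MC and NP. Over all genes tested 15.1% were higher with BaP, 11.8% with CHR, 10.6% with IND and 6.74% with NP. With 3MC and DBA the shares were 3.68% and 3.07%. Counts of 1 in so short a list are not read as a result about the list. CCND3, cyclin D3, rose with BaP (1.38 ± 0.08), CHR (1.14 ± 0.06) and IND (1.14 ± 0.05). CCND1, cyclin D1, fell with BF (-1.95 ± 0.01) and rose with NP (0.83 ± 0.11), BaP (0.68 ± 0.09), 3MC (0.60 ± 0.01) and DBA (0.59 ± 0.09).

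CDKN1A, the p53-induced inhibitor that keeps pocket proteins unphosphorylated, rose with 8 of the 9 compounds. It was at 4.37 ± 0.03 with BaP, 4.32 ± 0.24 with CHR, 2.46 ± 0.01 with BF, 2.38 ± 0.03 with IND, 1.68 ± 0.39 with DBA, 1.54 ± 0.20 with PH and 1.06 ± 0.13 with 3MC. BA gave 0.14, 2.06 and 2.00 on arrays 1 to 3 (mean 1.40 ± 1.10), and NP gave 0.31 ± 0.06, which did not pass (adjusted p = 0.251). CDKN1B, or p27, fell with NP (-1.99 ± 0.05), DBA (-1.72 ± 0.02) and 3MC (-1.63 ± 0.17), the compounds of the dim arrays, and with BaP (-0.93 ± 0.17). Of 7 inhibitor genes 3 rose with BaP, BF, CHR, IND (of 6 tested) and PH, 2 with BA (3 without array 1) and 1 with 3MC, DBA and NP. In the same list 2 fell with BaP and NP and 1 with BF, CHR, IND, PH, DBA and 3MC. With BA 0 fell (1 without array 1). Among those that fell were CDKN2C with IND (-1.22 ± 0.10), PH (-1.17 ± 0.07) and CHR (-0.76 ± 0.05), and CDKN2A with NP (-0.89 ± 0.04).

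CYP1A1 rose with the same 8 compounds, by 6.23 ± 0.14 with BF, 6.16 ± 0.29 with IND, 5.81 ± 0.45 with CHR, 5.70 ± 0.12 with BaP, 4.36 ± 3.27 with BA, 3.45 ± 0.24 with DBA, 2.90 ± 0.02 with 3MC and 2.63 ± 0.28 with PH, and NP gave 0.47 ± 0.05 (adjusted p = 0.537). Of 10 p53 targets outside the cell cycle machinery, 9 rose with BaP and with CHR, 7 with DBA and with 3MC, 6 with BF, 5 with BA, 4 with IND, and 1 with PH and with NP. Without BA array 1, 7 of them rose with BA. In the same list 2 fell with PH and with NP and 1 with BF. The PH counts are near the shares over all genes with PH, 10.6% higher and 7.92% lower. The part of p53 in the members' values was not tested. Of 5 AHR targets all 5 rose with BaP, CHR and IND, 4 with BF and BA, 3 with DBA, 1 with 3MC and PH, and 0 with NP.

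Of 6 hepatocyte genes, 6 fell with BF, 5 with IND and 4 with BaP, among them AFP at -2.97 ± 0.11 with BF, -2.96 ± 0.07 with IND and -1.74 ± 0.11 with BaP. NP lowered 3, and CHR, DBA and PH 2 each, 3MC 1, and BA 1 (3 without array 1). In turn 2 rose with CHR (TTR at 0.76 ± 0.09 and SERPINA1 at 0.67 ± 0.13), and SERPINA1 rose with NP (1.03 ± 0.17), 3MC (0.72 ± 0.10) and DBA (0.65 ± 0.12). Of 8 markers of blood, vessel and stromal cells, at most 2 rose and 1 fell with any compound, CD68 being the one that rose most often (1.62 ± 0.11 with BF and 1.02 ± 0.03 with BaP). Their part in the members' values was not tested.

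Across the 24 arrays of the shared platform, the genes most like FOXM1 in log2 ratio, among 8072 detected in both channels on every array, were MCM10 (Pearson r = 0.971), PPIH (0.969), KIF2C (0.963), TPX2 (0.95) and TICRR (0.949). Those most like E2F1 were BRD3 (0.987), FGFR4 (0.981), FOXRED2 (0.976), KLC4 (0.976) and PCYT2 (0.974), and those most like RB1 were CLDN12 (0.981), MON2 (0.974), ITGAV (0.971), NR2C1 (0.971) and SOAT1 (0.97). These are descriptions over arrays that come as 3 for each of 8 compounds and share platform and normalisation, so the points are not independent.

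Among the 10 genes themselves E2F1 and MYBL2 correlated at 0.949 over the 24 arrays (0.863 over the 21 without BF), and E2F2 and E2F8 at 0.926 (0.93 without BF). FOXM1 and E2F2 correlated at 0.925 (0.963 without BF), and E2F7 and E2F8 at -0.172 (-0.203). MYBL2 and FOXM1, which act one after the other, correlated at 0.583 over 24 arrays and 0.373 without BF. For TFDP1 and FOXM1 the values were 0.494 and 0.119, so the BF arrays carry much of that relation.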

How the data were processed

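As deposited, the scanner output of each array holds, for both dyes, the intensity of every spot and of the area around it, with neither subtraction nor normalisation, per the file headers. Saturation of a spot is given as a percent of its pixels, per the file headers, and no spot of the 10 genes was saturated. The series tables hold the authors' own log2 values of compound against DMSO, whose normalisation is not given in the sources used here. Of those 27 columns, 20 could be tied to spots and served as an alternative.

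Reading used Python 3.11.15, pandas 2.3.3 and numpy 2.4.6, fitting used R 4.3.3 with limma 3.58.1, and figures used matplotlib 3.10.9. Spots marked by the scanner software at -75 or lower and controls were dropped. Background was corrected with normexp (offset 50), each array was normalised by loess, and spots of a probe were averaged. Probes were named by transcript accession, symbol or older symbol, and the probe with the highest mean intensity stood for its gene. Probes entered the test when 2 or more of the 3 arrays of some compound had either dye more than 2 background SDs over background. One fit covered the 24 arrays of the 8 compounds that share a platform and another IND, each with 1 mean per compound and with 2-sided tests adjusted by Benjamini and Hochberg over all genes. Pairs of compounds were contrasts of that fit, adjusted over genes and pairs. The number of arrays limits the precision.

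The 10 genes, the lists and the alternatives were chosen with earlier results of these data known. Named genes were all 10 members, up to 3 passing members per list and compound with the largest ratios (not all are printed), CYP1A1, CDKN1A, and the 5 genes most like E2F1, FOXM1 and RB1. Further values of genes named this way are given for comparison. Arrays of equal number did not deviate together between compounds (mean r = 0.00348 over 84 pairs), so no block was used. The fit was tested on simulated log ratios. A comparison of protein sequences was not run. Alternatives were other background corrections, scalings, filters, thresholds, probe rules, array weights, a replicate block, separate fits, the authors' ratios and leaving out arrays in turn. Leaving out BA array 1 throughout was added after seeing the data.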

Additional observations from a re-analysis of the deposited data

Results flagged for a closer look

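E2F7 and RB1 passed in opposite directions with different compounds, and the difference between those compounds was itself tested in the fit of the shared platform. For E2F7 CHR minus BA was 2.44 (SE 0.10, adjusted p = 1.46e-14 with limma), CHR minus PH 2.34 (adjusted p = 2.65e-14), BaP minus BA 1.61 (adjusted p = 9.01e-12) and BaP minus PH 1.52 (adjusted p = 2.40e-11). E2F7 was above DMSO on 6 of 6 arrays of CHR and BaP and below it on 6 of 6 arrays of BA and PH. For RB1 CHR minus NP was 2.33 (SE 0.06, adjusted p = 2.53e-17), with 3 of 3 CHR arrays above DMSO and 3 of 3 NP arrays below. CHR and NP arrays differ in brightness, which cannot be told apart from the compounds in that difference. On the dimmer RB1 probe the means were 0.37 with CHR and -0.34 with NP.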

How the results depend on the processing

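Of 1500 recomputed member ratios, 1391 kept their direction and their side of the threshold, 23 no longer passed, 68 newly passed and 18 changed sign, of which 0 had passed before. The counts of differing pairs per member stayed within 1.5 times throughout. Array 1 of BA decides the BA count: the members that fell with BA ranged from 2 to 7 when arrays were left out in turn, and were 7 without array 1 throughout, 7 with array weights and 0 with BA fitted alone. Members that fell with 3MC reached 1 without its array 2, 2 with plain subtraction, 1 with an offset of 16, 1 with median centring and 3 on the authors' ratios. Those that fell with DBA were 2 with plain subtraction and 1 with an offset of 16. Median centring gave 2 that rose with BaP, 2 that rose with BF and 2 that fell with NP. The mean of probes gave 2 that fell with NP, and the authors' ratios 1 that rose with BF. At the adjusted p alone, members that fell were 6 with DBA, 6 with 3MC, 5 with NP and 8 with BA, and those that rose were 2 with BaP, 3 with PH, 1 with BA and 2 with BF. At 2-fold those that fell were 3 with CHR, 2 with PH and 1 with BA, and 0 rose with BaP. Threshold counts move by construction, and for the others the cause was not tested.

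Signs changed with median centring for E2F3 (0.18) and TFDP1 (0.079) with BaP, RB1 with DBA (0.043), FOXM1 (-0.071) and E2F1 (-0.10) with NP and E2F3 with BA (0.013). With the mean of probes TFDP1 was at -0.054 with DBA, -0.21 with 3MC and -0.012 with PH, and RB1 at -0.036 with PH and -1.03 with BF. On the authors' ratios E2F3 was at 0.055 with BaP, E2F7 at 0.12 with 3MC and TFDP1 at 0.19 with NP. With arrays left out, E2F3 with BaP ranged from -0.054 to 0.031, E2F7 with DBA from -0.022 to 0.0065, TFDP1 with DBA from -0.0090 to 0.017 and TFDP1 with NP from -0.17 to 0.015. With a replicate block 6 members fell with BaP and 7 with BF, as without it, and the block changed no call where it could be fitted, which leaves out IND. Median centring also moved the split over all genes: 657 were lower and 1619 higher with DBA (1270 and 535 with loess), 1340 and 3579 with BaP (1744 and 2624), 3240 and 4284 with BF (3538 and 2798), and 3020 and 619 with NP (2196 and 1173). Dim signals limit E2F7, E2F8, RBL1 and TFDP1 with DBA, 3MC and NP.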

Other observations

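The DMSO channel itself differed between sets of arrays. Taken as a multiple of the array's median DMSO signal, MYBL2 in DMSO cells was at 0.98 to 1.68 on the 9 arrays of DBA, 3MC and NP, and at 6.43 to 22.1 on the 15 arrays of BaP, BF, CHR, BA and PH. TFDP1 was at 0.353 to 0.675 on the first 9 and at 4.82 to 15.8 on the 15, and E2F1 at 1.80 to 2.72 and 3.27 to 19.6. RBL1 (0.151 to 0.502, against 0.752 to 1.54) and E2F8 (0.565 to 0.788, against 1.07 to 2.65) were likewise lower. So was E2F2, by a narrow gap (1.10 to 1.97, against 1.98 to 5.21). For FOXM1 (3.26 to 5.40, against 5.10 to 14.9) and E2F7 (0.449 to 0.818, against 0.678 to 1.84) the ranges overlapped. They also overlapped for RB1 (12.7 to 40.6, against 8.91 to 23.8) and E2F3 (5.94 to 12.5, against 3.78 to 11.1). The sets differ in brightness, and the part of this in the members' ratios was not tested.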
